A study of Rattus norvegicus with 9 samples.

Results

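The genes described here mark the cerebellum: 6 genes of granule cells (Gabra6, Cbln1, Cbln3, Fat2, Zic1 and Zic2), 3 genes of Purkinje cells (Pcp2, Car8 and Slc1a6), and the patterning gene En2. Each was read as the locus of the deposited assembly that carries the gene's name on the same strand. Where several loci carried 1 name, the locus with the highest mean count was taken. This gave 10 loci of 114601 in the count table, of which 19302 represent a gene name each, and all 10 had enough counts to be tested.

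Whole-brain RNA was sequenced from 9 male rats that had not been given alcohol, 3 of each genotype. Homozygous and heterozygous rats belonged to the Wistar line Crl:WI-Lrapem1Geh, in which CRISPR/Cas9 removed 618 bp of Lrap, a long non-coding RNA gene, from both alleles or from 1 allele. Wild-type rats were Wistar rats from Charles River, and nothing states that they shared litters with the mutants, so that in comparisons with wild type the line and the genotype cannot be told apart. The labels number separate rats within each genotype and give no treatment.

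Granule cells are small glutamatergic neurons that fill the inner layer of the cerebellar cortex, and their parallel fibres contact the dendrites of Purkinje cells. Purkinje cells are large GABAergic neurons and the output of that cortex. Genes made almost only in these cells mark cerebellar RNA within whole-brain RNA. In such bulk samples, fewer cells of a type and less RNA per cell cannot be told apart.

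Libraries held 27489383 to 46975919 estimated counts, and mitochondrial transcripts took 14.8 to 16.9% of them in homozygous rats, 15.1 to 28.1% in heterozygous rats and 19.6 to 40.4% in wild-type rats. Wild-type rat 2, with the highest share, was also the lowest library for the summed genes of several other brain regions, with values given beside the cortical and striatal genes. The labels do not give the position of the deletion. Of 3 loci with an isoform pair that differs by a gap of 618 bp, 1 on chromosome 12 had an isoform containing those bases, MSTRG.24458.2, at 0.245, 0.389 and 0.401 CPM (counts scaled to a common library total) in homozygous rats 1 to 3. It had 1.01, 1.00 and 1.11 CPM in heterozygous rats, against 2.58, 1.89 and 2.37 CPM in wild-type rats, so the genotypes did not overlap. This locus was picked with its values known.

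RefSeq promoter sequences (build GRCr8, 250 bases before to 50 after the annotated start) were at hand for 6 of the 10 genes: Gabra6, Fat2, Zic2, Pcp2, Slc1a6 and En2. The promoters of Gabra6 and Pcp2 are shown because, of the genes with a sequence at hand, these are the granule gene and the Purkinje gene whose levels ranged most widely over the rats. The Gabra6 window lies at chr10:27327185-27327484 on the minus strand, with the nuclear factor I core TTGGC in capitals, read here on the opposite strand as GCCAA. The Pcp2 window lies at chr12:6481258-6481557 on the minus strand, with AGGTCA, the core bound by the Purkinje cell receptor RORA, in capitals.
Gabra6: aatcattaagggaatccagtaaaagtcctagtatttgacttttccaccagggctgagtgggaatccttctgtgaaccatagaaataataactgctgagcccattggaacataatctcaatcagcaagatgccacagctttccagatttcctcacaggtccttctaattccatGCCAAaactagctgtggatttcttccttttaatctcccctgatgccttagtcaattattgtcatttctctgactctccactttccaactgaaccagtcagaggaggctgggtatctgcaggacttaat
Pcp2: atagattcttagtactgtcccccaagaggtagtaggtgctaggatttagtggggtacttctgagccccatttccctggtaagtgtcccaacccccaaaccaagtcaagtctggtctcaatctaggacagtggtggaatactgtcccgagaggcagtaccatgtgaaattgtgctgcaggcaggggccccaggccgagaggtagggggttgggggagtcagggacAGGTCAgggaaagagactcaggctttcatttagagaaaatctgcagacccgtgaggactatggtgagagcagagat

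Each motif was searched on both strands. The capital letters start at position -78 in Gabra6 and at position -26 in Pcp2, counted from the annotated start. TTGGC was also found in the windows of Fat2 and En2 and not in those of Zic2, Pcp2 and Slc1a6. AGGTCA was found only in Pcp2 among the 6 windows, although in mouse Slc1a6 is also known as a RORA target. Of 33469 promoters of the same length, 45.8% held TTGGC and 16.2% held AGGTCA. The E-box CANNTG, searched in the same way, was in 72.1% of promoters and in the windows of Gabra6, Fat2, Pcp2 and Slc1a6. These matches describe letters in a window and not binding.

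Gabra6 encodes the alpha6 subunit of the GABA-A receptor, which in the brain is largely restricted to granule cells. It lies on chromosome 10 at 27847439 to 27862868 (rn6, minus strand) and was assembled with 9 exons. Gabra6 was at 66.4, 0.585 and 56.8 CPM in homozygous rats 1 to 3, with 15.7, 23.7 and 35.0 CPM in heterozygous rats 1 to 3 and 2.30, 4.32 and 103 CPM in wild-type rats. Homozygous rat 2 and wild-type rats 1 and 2 were low, the other 2 homozygous rats and wild-type rat 3 were high, and the heterozygous rats lay between them. The lowest library held 0.566% of the level of the highest, a 177-fold range, and the genotypes overlapped. The low values were above a count of 0: 25 counts in homozygous rat 2 (exact Poisson 95% interval 16.2 to 36.9), 90 in wild-type rat 1 and 166 in wild-type rat 2.

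Cbln1 and Cbln3 encode cerebellins, secreted proteins with which granule cells hold their synapses on Purkinje cells. Cbln1 is the bridge between presynaptic neurexin and the receptor GluD2, and Cbln3 is its partner. Cbln1 (chromosome 19, 20607507 to 20611316, plus strand) was at 61.4, 6.36 and 45.8 CPM in homozygous rats, with 25.5, 22.7 and 35.3 CPM in heterozygous and 6.04, 5.47 and 74.2 CPM in wild-type rats. Cbln3 (chromosome 15, 34548295 to 34550860, minus strand) was at 41.7, 0.234 and 23.9 CPM in homozygous rats, with 9.64, 11.7 and 17.8 CPM in heterozygous and 1.10, 0.989 and 44.3 CPM in wild-type rats. For both genes the same 3 rats were low, homozygous rat 2 and wild-type rats 1 and 2, and homozygous and wild-type rats overlapped. The ranges were unequal, 13.6-fold for Cbln1 and 189-fold for Cbln3 (10 counts in the lowest library, exact Poisson 95% interval 4.8 to 18.4).

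Fat2 encodes a giant protocadherin of granule cell parallel fibres. It was assembled on the minus strand of chromosome 10 as 2 same-strand loci, of which the one with the higher mean count, at 40583067 to 40636480, stands for the gene. Fat2 was at 123, 3.79 and 96.9 CPM in homozygous rats, with 60.3, 46.8 and 90.6 CPM in heterozygous and 6.80, 6.56 and 152 CPM in wild-type rats. The 3 low rats stood 6.88-fold or more below the other 6. The other Fat2 locus, MSTRG.14933, at 40648086 to 40682749, was at 45.9, 1.43 and 34.8 CPM in homozygous rats, with 28.8, 17.9 and 34.1 CPM in heterozygous and 2.23, 2.14 and 61.9 CPM in wild-type rats. Both pieces of the gene were thus low in the same 3 rats.

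Zic1 and Zic2 encode zinc finger transcription factors of granule cells and their precursors that are also made in parts of the forebrain. Zic1 (chromosome 8, 98731202 to 98739038, minus strand) was at 52.3, 14.1 and 49.5 CPM in homozygous rats, with 23.4, 31.1 and 36.8 CPM in heterozygous and 13.3, 8.43 and 61.0 CPM in wild-type rats. Zic2 (chromosome 15, 108912655 to 108913805, plus strand) was at 11.5, 5.54 and 14.9 CPM in homozygous rats, with 8.50, 10 and 12.3 CPM in heterozygous and 4.94, 4.37 and 19.7 CPM in wild-type rats. Both had the same 3 low rats, with narrower ranges than the other granule genes, 7.23-fold for Zic1 and 4.51-fold for Zic2. The Zic2 locus is a single-exon piece that overlaps the gene. A second Zic2 locus, MSTRG.37082, with 3 exons, was at 12.1, 4.52 and 8.51 CPM in homozygous rats, with 4.77, 5.21 and 7.70 CPM in heterozygous and 2.87, 1.09 and 10.7 CPM in wild-type rats, and here homozygous rat 1 was the highest. Its range was wider, at 11.1-fold, so the 4.51-fold range holds for the single-exon piece and not for the whole gene.

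Pcp2, also called L7, encodes a regulator of G protein signalling made in Purkinje cells and in bipolar cells of the retina. Pcp2 (chromosome 12, 2172378 to 2174417, minus strand) was at 31.2, 0.211 and 17.1 CPM in homozygous rats, with 5.01, 7.82 and 14.6 CPM in heterozygous and 0.384, 0.260 and 19.2 CPM in wild-type rats. The 3 low libraries held 9 counts in homozygous rat 2, 15 in wild-type rat 1 and 10 in wild-type rat 2, and the nearest of the other 6 stood 13.1-fold above the highest of them. By CPM, Pcp2 was the only one of the 10 genes with its highest value in homozygous rat 1 and not in wild-type rat 3. This order depends on the scaling, since by unscaled counts Pcp2 was highest in wild-type rat 3, at 764 against 706 in homozygous rat 1. It overlaps Pet100 on the other strand, which had 120% of its mean count. The library kit keeps the strand, but the strand setting used in counting is not stated, so the low Pcp2 levels are uncertain.

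Car8 encodes a protein related to carbonic anhydrases that binds the inositol trisphosphate receptor of Purkinje cells, and Slc1a6 encodes the glutamate transporter EAAT4 of their dendrites. Car8 (chromosome 5, 21243252 to 21345810, minus strand) was at 135, 9.52 and 94.3 CPM in homozygous rats, with 31.1, 50.9 and 74.4 CPM in heterozygous and 10.6, 12.9 and 171 CPM in wild-type rats. Slc1a6 (chromosome 7, 13729344 to 13743386, minus strand) was at 11.3, 0.889 and 7.53 CPM in homozygous rats, with 3.25, 3.66 and 5.70 CPM in heterozygous and 0.870, 0.495 and 12.2 CPM in wild-type rats. Both Purkinje genes were low in the rats in which the granule genes were low, and their ranges were 18.0-fold and 24.6-fold. Slc1a6 rests on 38 counts in homozygous rat 2 and on 34 and 19 in wild-type rats 1 and 2. A second, weaker Slc1a6 locus, MSTRG.92849, had the same 3 low rats, at 0.281 CPM in homozygous rat 2 and at 0.230 and 0.156 CPM in wild-type rats 1 and 2, against 0.769 to 3.85 CPM in the other 6.

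En2 encodes a homeodomain factor that patterns the midbrain and hindbrain and stays on in the adult cerebellum. En2 (chromosome 4, 438668 to 444501, plus strand) was at 4.56, 0.0936 and 2.69 CPM in homozygous rats, with 1.47, 1.72 and 2.44 CPM in heterozygous and 0.0767, 0.234 and 4.66 CPM in wild-type rats. Its values in homozygous rat 2 and wild-type rats 1 and 2 rest on 4, 3 and 9 counts, with exact Poisson 95% intervals of 0.0255 to 0.240, 0.0158 to 0.224 and 0.107 to 0.445 CPM, and so cannot be ordered at this depth. These intervals cover counting error only.

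**Figure D1:**
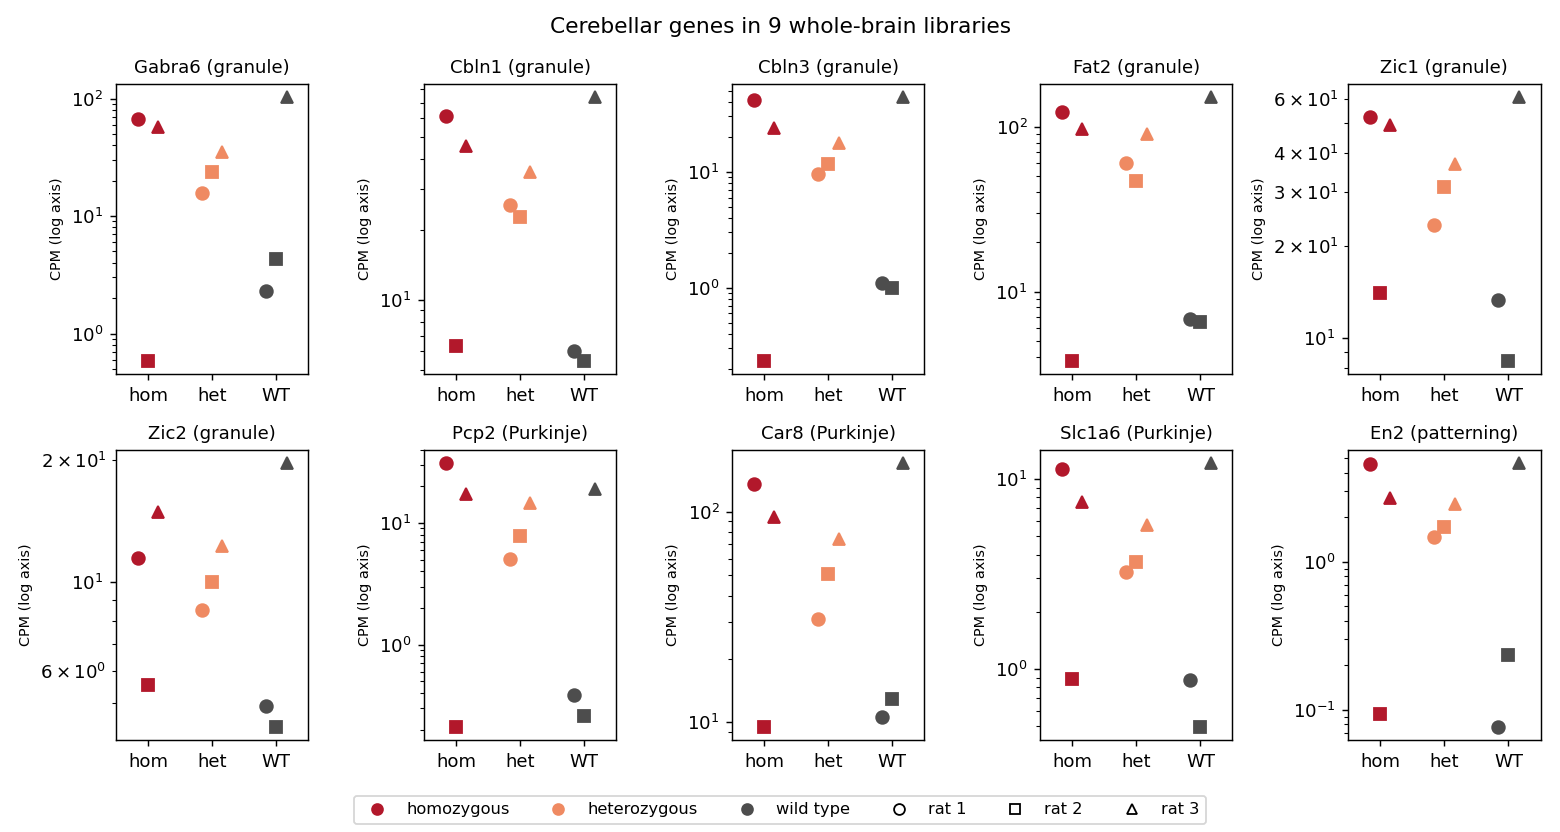
CPM (log axis) of the 10 genes in homozygous (hom), heterozygous (het) and wild-type (WT) rats, 1 point per rat, with the symbol giving the rat number. In every panel homozygous rat 2 and wild-type rats 1 and 2 lie below the other 6 rats, and the heterozygous rats lie inside the range of the homozygous and wild-type rats.

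The 3 lowest libraries were the same for all 10 genes. Of 13396 named loci with a mean of at least 1 CPM, 1148 (8.57%) had these 3 libraries lowest. The step between the highest of the 3 and the lowest of the other 6 was 13.1-fold for Pcp2, 8.77-fold for Cbln3 and 6.88-fold for Fat2, and only 1.66-fold for Zic1 and 1.53-fold for Zic2. For Gabra6 it was 3.635-fold, less than the 7.39-fold spread among the 3 low libraries, and for Zic1 it did not exceed their 1.67-fold spread. In the remaining genes the step was larger than the spread of the 3 low libraries. Within the 6 higher libraries the genes still ranged over 2.32-fold (Zic2) to 6.58-fold (Gabra6). The heterozygous rats lay at the lower end and homozygous rat 1 and wild-type rat 3 at the upper end. Zic2 was an exception, since heterozygous rat 3 and homozygous rat 3 both exceeded homozygous rat 1.

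Among the 3 low libraries the genes did not share 1 order. The exact Poisson 95% interval of Gabra6 was 0.378 to 0.863 CPM in homozygous rat 2, 1.85 to 2.83 CPM in wild-type rat 1 and 3.69 to 5.03 CPM in wild-type rat 2, so the 3 differed by more than counting error. Zic1 ran the other way, at 13.0 to 15.2 CPM in homozygous rat 2 and 12.2 to 14.5 CPM in wild-type rat 1, against 7.54 to 9.40 CPM in wild-type rat 2. The intervals of Pcp2 overlapped in all 3, at 0.0963 to 0.400, 0.215 to 0.633 and 0.125 to 0.479 CPM in homozygous rat 2 and wild-type rats 1 and 2. Car8 was at 8.62 to 10.5 CPM, 9.62 to 11.7 CPM and 11.8 to 14.1 CPM in the same rats, highest in wild-type rat 2. The ratio of Gabra6 to Cbln3 was 4.37 in wild-type rat 2 and between 1.59 and 2.5 in the other 8.

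The authors' TPM, which divides counts by transcript length, gives the order of the genes within a library. By median TPM over the 9 libraries, Pcp2 was highest at 16.6, followed by Cbln1 at 6.05, Gabra6 at 5.75, Zic2 at 4.29, Car8 at 4.20, Cbln3 at 3.88, Zic1 at 3.22, Fat2 at 3.07, Slc1a6 at 1.18 and En2 at 0.38. The neighbours from Cbln1 to Fat2 changed places between libraries, and En2 was lowest in all 9. In the 6 higher libraries Pcp2 was the most abundant, at 36.9 and 20.2 TPM in homozygous rats 1 and 3, at 7.40, 16.6 and 18.0 TPM in heterozygous rats, and at 43.4 TPM in wild-type rat 3. In the other 3 Zic2 was the most abundant, at 2.23 TPM in homozygous rat 2 and at 3.17 and 2.76 TPM in wild-type rats 1 and 2. In those 3 libraries Pcp2 ranked 5 or 6, at 0.26 TPM in homozygous rat 2 and at 0.78 and 0.48 TPM in wild-type rats 1 and 2. The rank of Zic2 is that of its single-exon piece of 1151 bases. The ranks of Fat2 and Slc1a6 are likewise those of a part of each gene, since both had a second same-strand locus. The overlap with Pet100 on the other strand also limits the rank of Pcp2.

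None of the 10 genes passed the test between genotypes, edgeR's quasi-likelihood test over all 39057 loci with Benjamini-Hochberg adjustment and a threshold of 0.05. In homozygous against wild-type rats 0 of the 10 passed, where 0% of all loci passed. By DESeq2 again 0 of the 10 passed, where 0.0845% of loci did, and on log2(TPM + 0.1) with limma 0 of the 10, where 9.90% of loci did. At an unadjusted p under 0.05, 0 of the 10 passed and 9.13% of all loci did, and the rats of both genotypes overlapped for all 10 genes, where 13.4% of loci did not overlap. Gabra6 averaged 41.3 ± 35.6 CPM in homozygous and 36.7 ± 57.8 CPM in wild-type rats (SD, n = 3 each), a log2 fold change of 0.17 (SE 1.70, edgeR adjusted p = 0.977) with a 95% interval of -3.99 to 4.33. Pcp2 averaged 16.2 ± 15.5 CPM in homozygous and 6.60 ± 10.9 CPM in wild-type rats, the largest of the 10 log2 fold changes at 1.28 (SE 1.80, edgeR adjusted p = 0.809), with a 95% interval of -3.11 to 5.68. With SDs near or above the means, intervals of this width allow large differences in either direction.

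The other log2 fold changes of homozygous over wild-type rats were 0.40 for Cbln1 (SE 1.17), 0.50 for Cbln3 (SE 1.75) and 0.43 for Fat2 (SE 1.49). Zic1 had 0.48 (SE 0.76) and Zic2 0.13 (SE 0.54), the smallest standard errors of the 10. Car8 had 0.30 (SE 1.28), Slc1a6 0.52 (SE 1.24) and En2 0.51 (SE 1.37). Their edgeR adjusted p ran from 0.831 to 0.944. The 3-exon Zic2 locus, which is not among the 10, had 0.77 (SE 0.67, edgeR adjusted p = 0.68). The values of all 10 genes were above 0 with edgeR, where 11126 of 15221 named loci were, though Gabra6 and Zic2 were below 0 on log2(TPM + 0.1). With edgeR the median of the 10 was 0.46 (0.42 over the granule genes and 0.52 over the Purkinje genes), against 0.14 over the named loci and -0.07 over all loci tested. The signs rested on single rats. Leaving out homozygous rat 1 put 7 of the 10 below 0, leaving out homozygous rat 3 put 2, leaving out wild-type rat 1 put 7 and leaving out wild-type rat 2 put 8. With rat number as a block, all 10 were above 0 and 0 passed in edgeR, where 1 locus did, and the medians were 0.88 for the granule and 1.13 for the Purkinje genes.

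Wild-type rat 3 had the largest weight. Without it, the median log2 fold change of homozygous over wild-type rats was 3.13 for the granule genes and 3.27 for the Purkinje genes, 6 of the 10 genes had an unadjusted p under 0.05, where 26.7% of all loci did in that fit, and the lowest edgeR adjusted p was 0.0941, so that still none passed. Without homozygous rat 2 the medians were 0.92 for the granule and 1.08 for the Purkinje genes.

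In heterozygous against wild-type rats 0 of the 10 passed, where 0.00768% of loci did, and at an unadjusted p under 0.05 again 0 of 10, against 3.73% of loci. The log2 fold changes of the 10 ran from -0.56 to 0.47, 5 above and 5 below 0, with a median of 0.02, against 0.08 over named loci, whereas limma-voom, log2(TPM + 0.1), a block on rat number and leaving out wild-type rat 3 each put all 10 above 0. Leaving out wild-type rat 1, wild-type rat 2 or heterozygous rat 3 put all 10 below 0. Without wild-type rat 3, 2 of the 10 had an unadjusted p under 0.05, where 16.9% of all loci did. Gabra6 averaged 24.8 ± 9.70 CPM in heterozygous and 36.7 ± 57.8 CPM in wild-type rats (log2 fold change -0.56, SE 1.71, edgeR adjusted p = 0.988). Pcp2 averaged 9.15 ± 4.95 CPM in heterozygous and 6.60 ± 10.9 CPM in wild-type rats (log2 fold change 0.47, SE 1.78, edgeR adjusted p = 0.992). The rats of both genotypes overlapped for all 10, where 6.5% of loci did not overlap.

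In homozygous against heterozygous rats 0 of the 10 passed, where 0.00256% of loci did, and 0 of 10 had an unadjusted p under 0.05, against 1.71% of loci. The 10 log2 fold changes ran from 0.05 to 0.82, all above 0 with edgeR, where 10803 of 15221 named loci were. Their median was 0.53, against 0.08 over named loci, whereas limma-voom put 9 and log2(TPM + 0.1) all 10 below 0. The signs rested on single rats here too: leaving out homozygous rat 1 put 8 below 0 and homozygous rat 3 put 2, and with a block on rat number 7 were below 0. These comparisons share their homozygous, heterozygous or wild-type libraries with the others and are not independent of them. Gabra6 had a log2 fold change of 0.73 (SE 1.71, edgeR adjusted p = 1) and Pcp2 of 0.82 (SE 1.77, edgeR adjusted p = 1), and both signs turned by limma-voom, on log2(TPM + 0.1) and with the block. The rats of both genotypes overlapped for all 10, where 8.83% of loci did not overlap.

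**Figure D2:**
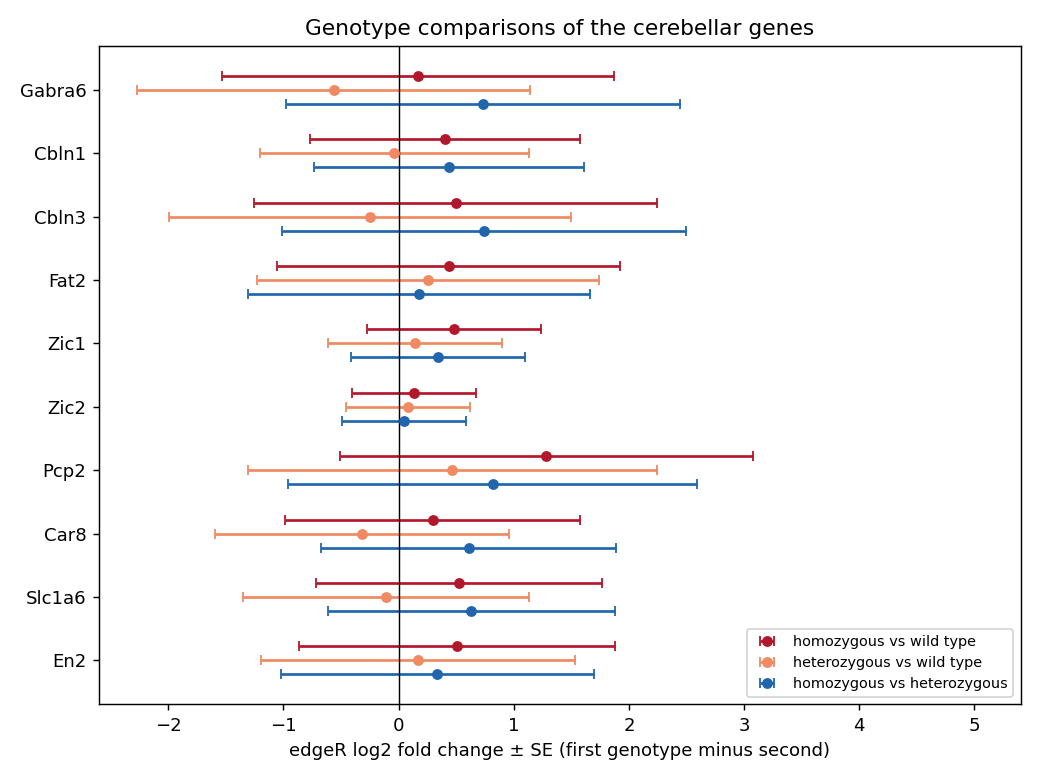
edgeR log2 fold change with its standard error for the 10 genes in homozygous against wild-type, heterozygous against wild-type and homozygous against heterozygous rats (n = 3 per genotype). Values run from -0.56 (Gabra6, heterozygous against wild type) to 1.28 (Pcp2, homozygous against wild type), and the bars of Zic1 and Zic2 are the shortest.

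Most of the variation of these genes lay between rats of 1 genotype. Genotype accounted for 4.50% (Gabra6) to 16.4% (Pcp2) of their variance in log2(CPM + 0.5), against a median of 22% over 15221 named loci. The biological coefficient of variation, the spread between rats beyond counting error that edgeR estimates, was 1.37 for Pcp2, 1.32 for Cbln3, 1.27 for Gabra6, 1.14 for En2 and 1.12 for Fat2. It was 0.98 for Car8, 0.98 for Slc1a6, 0.91 for Cbln1, 0.62 for Zic1 and 0.46 for Zic2. The median of named loci was 0.20, and 97.4% (Zic2) to 99.9% (Cbln3 and Pcp2) of them varied less than a given gene of the 10.

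Since the libraries fell into separate sets of 3 and 6, relations between the genes were measured over the 6 higher libraries, which hold 2 homozygous, 3 heterozygous and 1 wild-type rat. On log2(CPM + 0.5) the Pearson correlations of the 45 pairs ran from 0.635 to 0.998, with a median of 0.937. The closest pair was Cbln3 with Slc1a6, a granule gene with a Purkinje gene (r = 0.998, exact permutation p = 0.0014, adjusted over the 45 pairs 0.0069; Spearman's rho = 1, exact permutation p = 0.0028). The loosest was Zic2 with Pcp2 (r = 0.635, exact permutation p = 0.171; rho = 0.657, exact permutation p = 0.175). After adjustment 39 of the 45 pairs passed by r and 36 by rho, and the 6 that failed by r all included Zic2. Zic2 stands here for its single-exon piece, whose r with the 3-exon Zic2 locus was 0.709 over these 6 libraries. The lowest r that passed was 0.844, a size that 6.74% of all pairs among 13396 named loci reached over the same 6 libraries, and 1.5% reached the members' median. After centring on the genotype means, which leaves the 5 homozygous and heterozygous rats, r ran from 0.0967 (Zic2 with En2) to 0.994 (Cbln3 with En2), with a median of 0.836. All r stayed positive without the 2 libraries farthest from the median of the first gene (lowest 0.252), but 4 libraries give an exact permutation p of at best 0.0417 and 0 of the 45 pairs then passed.

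Correlations within the granule set (median 0.933 over 15 pairs) and between granule and Purkinje genes (median 0.936 over 18 pairs) were alike in size. Within a library all genes share its depth and scaling, and what the genes' shared variation stems from was not tested.

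Purkinje genes were set against granule genes within each library as the difference of their mean log2(CPM + 0.5). It was -0.40, -0.73 and -0.79 in homozygous rats 1 to 3, -1.17, -0.85 and -0.73 in heterozygous rats, and -1.08, -1.17 and -0.86 in wild-type rats. The means were -0.64 ± 0.21, -0.92 ± 0.23 and -1.04 ± 0.16 in homozygous, heterozygous and wild-type rats (SD, n = 3 each). Homozygous and wild-type rats did not overlap on this scale. The score depends on the 0.5 added in the low libraries, where in homozygous rat 2 Pcp2 (0.211 CPM) and Cbln3 (0.234 CPM) lay below it. They overlapped on log2(TPM + 0.1), at -0.44 to 0.37 in homozygous and -0.86 to -0.05 in wild-type rats. No test was run on this score over members.

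The ratio of Pcp2 to Gabra6 in CPM was 0.470, 0.360 and 0.302 in homozygous rats, 0.319, 0.329 and 0.418 in heterozygous rats, and 0.167, 0.0600 and 0.185 in wild-type rats. Every homozygous and heterozygous rat was above every wild-type rat. This pair was singled out after its values were seen. Of the 18 ratios of a Purkinje gene to a granule gene, 2 had every homozygous and heterozygous rat above every wild-type rat, Pcp2 to Gabra6 and Pcp2 to Cbln3, and both rest on Pcp2. In homozygous against wild-type rats the other 16 overlapped, among them Car8 to Gabra6 at 2.03, 16.3 and 1.66 in homozygous and 4.61, 2.99 and 1.65 in wild-type rats. In heterozygous against wild-type rats 15 overlapped and 1, Car8 to Fat2, was lower in every heterozygous rat. The ratio in wild-type rat 2 rests on 10 counts of Pcp2, that in homozygous rat 2 on 9, and the overlap with Pet100 touches all of them. How many ratios of other gene pairs did not overlap was not counted, so the count of 2 of 18 cannot be weighed. The 18 ratios also share their genes and are not independent of each other.

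**Figure D3:**
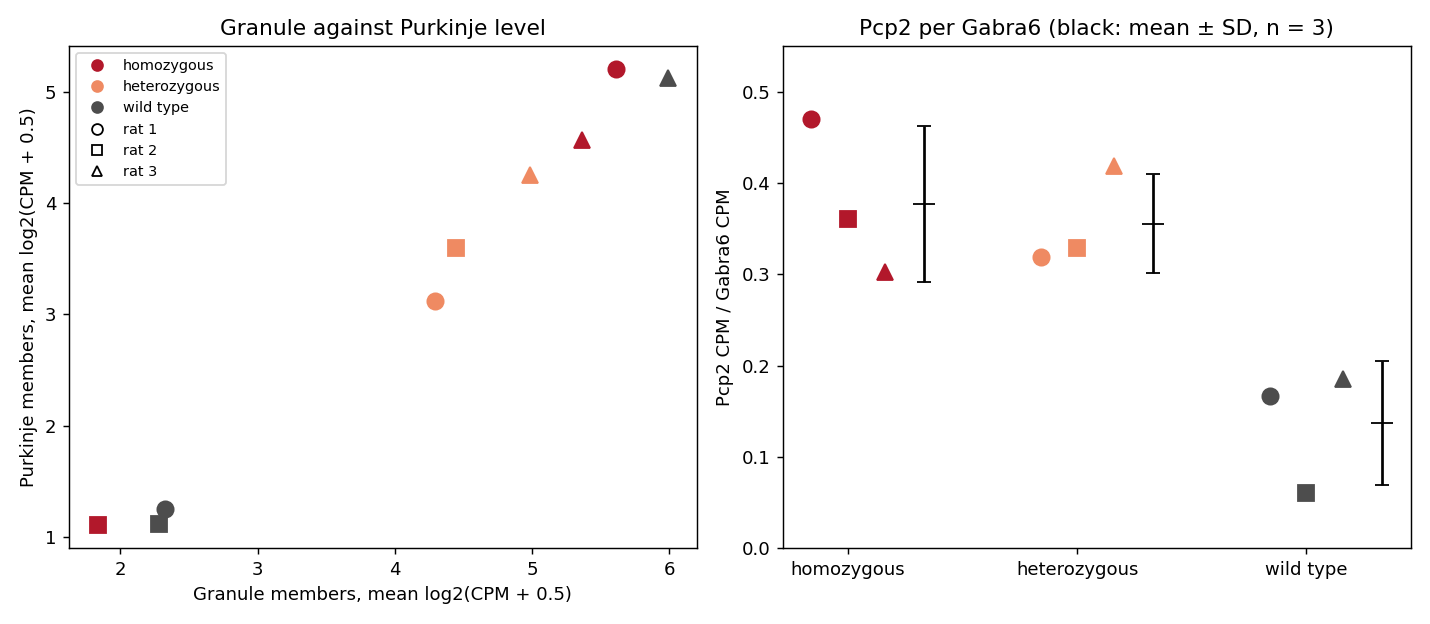
Left, the mean log2(CPM + 0.5) of the 3 Purkinje genes against that of the 6 granule genes, 1 point per rat; right, the ratio of Pcp2 to Gabra6 in CPM by genotype, with mean ± SD (n = 3). Homozygous rat 2 and wild-type rats 1 and 2 lie apart at the lower left, and the ratio is 0.302 or more in homozygous and heterozygous rats and 0.185 or less in wild-type rats.

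A longer list of cerebellar genes showed how far the pattern went. Of its 43 genes 40 were tested, and 0 passed in any of the 3 comparisons (edgeR), also at an unadjusted p under 0.05. In homozygous over wild-type rats 36 were above and 4 below 0, with a median log2 fold change of 0.31. Most named loci also lay above 0 in this comparison, 11126 of 15221. Homozygous rat 2 and wild-type rats 1 and 2 were the lowest libraries for 10 of 16 granule lineage genes, 15 of 18 Purkinje genes, 1 of 3 Bergmann glia genes and 2 of 3 patterning genes.

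The genes of this list with the smallest p in homozygous against wild-type rats were Lhx5, Gbx2, Grin2c and Grm4. Lhx5, a homeodomain factor of early Purkinje cells, was at 1.11, 0.491 and 1.38 CPM in homozygous rats, with 0.681, 1.01 and 0.762 CPM in heterozygous and 0.128, 0.0521 and 0.852 CPM in wild-type rats (log2 fold change 1.49, SE 0.69, edgeR adjusted p = 0.544). Gbx2, a homeodomain factor of the hindbrain and thalamus, was at 0.133, 0.328 and 0.352 CPM in homozygous rats, with 0.154, 0.222 and 0.131 CPM in heterozygous and 0.0512, 0 and 0.226 CPM in wild-type rats (log2 fold change 1.59, SE 0.75, edgeR adjusted p = 0.544). In both genes the homozygous and wild-type rats overlapped.

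Grin2c, the NMDA receptor subunit that mature granule cells use, was at 41.1, 27.9 and 32.4 CPM in homozygous rats, with 31.4, 25.5 and 33.7 CPM in heterozygous and 24.9, 17.4 and 35.0 CPM in wild-type rats (log2 fold change 0.39, SE 0.24, edgeR adjusted p = 0.577). Grm4, the metabotropic glutamate receptor of parallel fibre endings, was at 18.6, 5.10 and 11.3 CPM in homozygous rats, with 7.16, 5.35 and 7.51 CPM in heterozygous and 3.94, 0.937 and 11.5 CPM in wild-type rats (log2 fold change 1.09, SE 0.74, edgeR adjusted p = 0.609). Both overlapped between homozygous and wild-type rats.

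Itpr1, an inositol trisphosphate receptor that other brain regions also make, ranged less than Pcp2. It was at 1002, 492 and 787 CPM in homozygous rats, with 523, 628 and 716 CPM in heterozygous and 447, 346 and 1069 CPM in wild-type rats. Ppp1r17, a phosphatase inhibitor found mainly in Purkinje cells, was at 11.3, 0.351 and 6.95 CPM in homozygous rats, with 2.70, 4.61 and 5.94 CPM in heterozygous and 0.563, 0.599 and 18.3 CPM in wild-type rats. The same 3 rats were low for both genes. Skor2, another Purkinje gene, was at 0 in homozygous rat 2 and wild-type rat 1, and at 0.0260 CPM in wild-type rat 2.

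The named genes most like the 6 granule genes over the 9 libraries, by Pearson's r of log2(CPM + 0.5) with the granule genes' mean z-score among 13386 genes, were Slc6a5 (0.997), Crtam (0.993), St14 (0.993), Atp2a3 (0.991) and Dao (0.990). Those most like the Purkinje genes were Atp2a3 (0.997), Slc6a5 (0.995), Hes3 (0.995), Dao (0.995) and Neurod1 (0.993). As these r are carried by the gap between the 3 low and the 6 other libraries, they are descriptions only. Over the 6 higher libraries they were 0.937 (Dao) to 0.980 (Slc6a5) with the granule genes and 0.967 (Slc6a5) to 0.989 (Neurod1) with the Purkinje genes.

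Slc6a5 encodes the glycine transporter GlyT2 of inhibitory neurons in the brainstem, spinal cord and cerebellum. It was at 13.6, 1.26 and 10.6 CPM in homozygous rats, with 5.14, 6.79 and 7.70 CPM in heterozygous and 1.61, 1.46 and 16.7 CPM in wild-type rats. Atp2a3, a calcium pump of the endoplasmic reticulum, was at 50.7, 2.83 and 27.1 CPM in homozygous rats, with 13.2, 16.8 and 26.4 CPM in heterozygous and 3.40, 2.47 and 48.7 CPM in wild-type rats. Both were low in the rats in which the 10 genes were low.

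Genes of other brain regions moved with the cerebellar genes in part. Of the 5 brainstem genes listed, 3 were in the assembly. Their summed level was 1.43 to 14.3 CPM in homozygous, 5.58 to 8.43 CPM in heterozygous and 1.46 to 17.6 CPM in wild-type rats, and Slc6a5 and Slc6a2 had the same 3 lowest libraries. Hoxa5 was at 0 in 5 libraries, homozygous rats 1 to 3 and wild-type rats 1 and 2.

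Cortical and striatal genes did not share these 3 lowest libraries. The cortical genes Tbr1 and Neurod6 summed to 27.2 to 28.1 CPM in homozygous, 25.4 to 29.3 CPM in heterozygous and 29.1 to 45.4 CPM in wild-type rats, a 1.79-fold range with neither of them at 0. The 4 striatal genes summed to 126 to 142 CPM in homozygous, 108 to 118 CPM in heterozygous and 62.7 to 142 CPM in wild-type rats. The 4 general neuronal genes, 2 of which had the same 3 lowest libraries, summed to 1060 to 1200 CPM in homozygous, 972 to 1150 CPM in heterozygous and 796 to 1210 CPM in wild-type rats.

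Wild-type rat 2 stood apart beyond the cerebellum. It was the lowest library for the summed striatal, olfactory bulb, thalamic, hypothalamic, midbrain, meningeal and general neuronal genes. For the summed cortical, choroid plexus and blood genes it was the highest. Some single genes departed from their sums. Tbr1 was highest in wild-type rat 1 (18.6 CPM, against 13.7 CPM in wild-type rat 2), as was Slc4a1 (5.91 against 2.66 CPM). Dcn and Pomc were lowest in wild-type rat 1 and Tbx21 in wild-type rat 3. The other genes reported from these lists followed their sums. The 5 hypothalamic genes summed to 11.2 CPM or more in homozygous rats and 6.59 CPM or more in heterozygous rats, against 1.33 CPM in wild-type rat 2 and up to 16.2 CPM in wild-type rats. The 3 midbrain genes summed to 9.17 to 14.1 CPM in homozygous rats and 6.59 to 10.4 CPM in heterozygous rats, against 0.521 CPM in wild-type rat 2 and up to 13.6 CPM in wild-type rats. The 4 thalamic genes summed to 48.6 to 68.3 CPM in homozygous, 54.2 to 60.1 CPM in heterozygous and 35.1 to 76.7 CPM in wild-type rats. Rora made up most of this sum, at 25.2 of 35.1 CPM in wild-type rat 2 and 58.0 of 76.7 CPM in wild-type rat 3. Rora is also a Purkinje gene of the longer cerebellar list, with the same 3 lowest libraries as the 10 genes, and Gbx2 is on both lists too. The 3 choroid plexus genes summed to 220.0 to 385 CPM in homozygous, 244 to 396 CPM in heterozygous and 189 to 505 CPM in wild-type rats. The part of these differences in the low cerebellar levels of wild-type rat 2 was not tested.

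The 4 olfactory bulb genes summed to 41.9 to 69.8 CPM in homozygous, 13.6 to 59.9 CPM in heterozygous and 7.50 to 22.1 CPM in wild-type rats, highest in homozygous rat 2. Of the granule genes, Gabra6, Cbln3 and Fat2 were lowest in homozygous rat 2, whereas Cbln1, Zic1 and Zic2 were lowest in wild-type rat 2. None of the olfactory bulb, cortical or striatal genes had homozygous rat 2 and wild-type rats 1 and 2 as its 3 lowest libraries. Mitochondrial transcripts took 16.9% of counts in homozygous rat 2, 21.3% in wild-type rat 1 and 40.4% in wild-type rat 2, against 14.8 to 28.1% in the other 6. Their totals of 43455141, 37738860 and 35816231 counts lay inside the range of the other 6. The part of the mitochondrial share, or of what moved the brainstem and olfactory bulb genes, in the low cerebellar levels of these 3 rats was not tested.

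**Figure D4:**
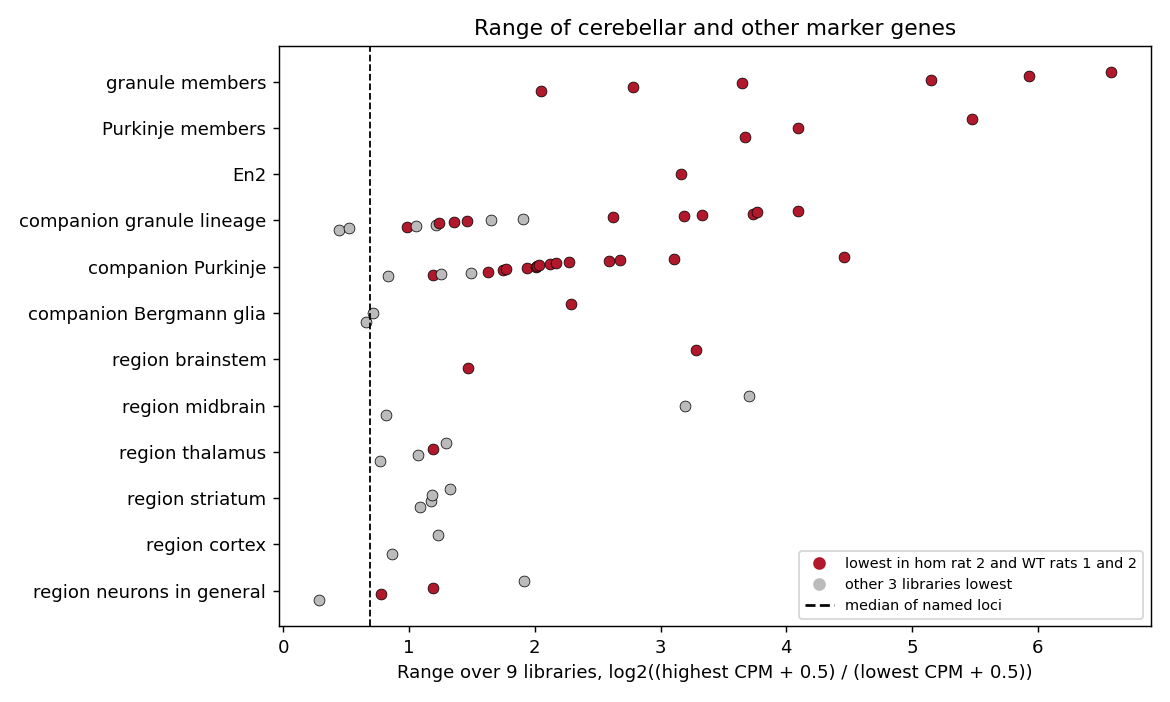
Range over the 9 libraries, as log2 of the highest over the lowest CPM with 0.5 added to both, for the 10 genes, the longer cerebellar list and genes of other regions, 1 point per gene. Red points, with homozygous rat 2 and wild-type rats 1 and 2 as the 3 lowest libraries, include all 10 genes (2.05 to 6.58) but none of the cortical or striatal genes, and the dashed line is the median of 0.69 over 13396 named loci.

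Isoform shares are the percent of a locus's output that the authors' files assign to each isoform. Among the 10 loci that stand for the genes, those of the main isoform overlapped between genotypes wherever a locus had more than 1. Of these 10 loci, 7 were assembled with 1 isoform. The second Fat2 locus, MSTRG.14933, was assembled with 3 isoforms, and isoform shares at the second loci of Fat2, Zic2 and Slc1a6 were not examined. The main Gabra6 isoform took 84.2 to 100% in homozygous, 84.7 to 92.3% in heterozygous and 89.2 to 100% in wild-type rats, and the 100% came from libraries with 25 and 90 counts. The main Pcp2 isoform took 71.4 to 85.6% in homozygous rats, 77.2 to 83.1% in heterozygous rats, and 78.8, 0 and 69.7% in wild-type rats 1 to 3, where the 0 rests on 10 counts. Its isoform MSTRG.22698.1 took 13.8, 14.4 and 22.7% in homozygous, 14.99, 20.1 and 12.1% in heterozygous and 21.2, 47.2 and 22.9% in wild-type rats. Heterozygous and wild-type rats thus did not overlap, but only by 20.1% against 21.2%. How many of all isoforms did not overlap was not counted, so this gap cannot be weighed. The share was not tested, and in wild-type rats 1 and 2 it rests on 15 and 10 counts of the locus. The longest Zic1 isoform took 63.1 to 81.8% in homozygous, 71.7 to 75.0% in heterozygous and 62.8 to 93.3% in wild-type rats.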

How the data were processed

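RNA from the whole brain of 9 rats was analysed from the deposited files. Per the submitters' processing notes, cutadapt, HISAT2, StringTie and RSEM were used with build rn6; no source used here states versions or the strand setting. Files deposited by the authors hold expected counts of RSEM (estimated counts that need not be whole), TPM (scaled for transcript length and library) and the percent of a locus assigned to each isoform. Library totals ran from 27489383 to 46975919 expected counts; without molecular identifiers, reads cannot be taken as separate molecules, so intervals cover counting error only.

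Expected counts were rounded. Of 114601 loci 39057 passed filterByExpr and were fitted together with edgeR 4.0.16 (TMM, quasi-likelihood, robust, legacy set to FALSE) in R 4.3.3. Adjusted p-values are Benjamini-Hochberg over these loci, with a threshold of 0.05. CPM uses TMM-scaled totals. The edgeR, limma-voom and DESeq2 tests of homozygous against wild type were also run on simulated counts, and the other steps were not. Alternatives were DESeq2 1.42.0, limma 3.58.1 (voom, and log2 TPM with 0.1 added), other size factors, no filter, the legacy method, a replicate block, separate fits and leaving out each rat.

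The genes and lists were chosen with earlier results of these data known. Named besides the 10 genes are the 4 genes of the longer cerebellar list with the smallest p, and 5 genes most like each cell type's genes; other genes named were chosen after their values were seen. Correlations were planned over 9 libraries and are tested over 6, since the libraries fell into separate sets. Libraries of 1 genotype differed by a chi-square of at least 24.38 per locus, so none was a copy of another. Deviations from the genotype means correlated between same-numbered rats at 0.107, 0.359 and 0.317 in homozygous against wild type. All were above 0.1, so a block was taken as possible there, though the labels give the numbers no meaning. Some differently numbered pairs were about as high, at 0.352 (homozygous rat 1 with wild-type rat 3) and 0.307 (homozygous rat 2 with wild-type rat 1), and others ran down to -0.596. These values therefore do not show that the numbers pair rats. Same-numbered rats correlated at 0.186, -0.043 and 0.176 in heterozygous against wild type and at 0.179, 0.065 and 0.224 in homozygous against heterozygous. The labels do not say that rats of 1 genotype came from separate litters. For lack of an rn6 genome, sequences come from the RefSeq GRCr8 table; promoters of Zic1, Cbln1, Cbln3 and Car8 are not shown. One gene of the cortical list is not reported here.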

Additional observations from a re-analysis of the deposited data

How the results depend on the processing

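None of the 10 genes passed the threshold in any comparison under any alternative, and leaving out a rat changed that in no case. The number of loci past the threshold moved more, given in the order homozygous against wild type, heterozygous against wild type and homozygous against heterozygous: 0, 3 and 1 as reported, 6, 5 and 2 without a filter on low counts, 33, 18 and 6 by DESeq2, and 3867, 32 and 10 on log2(TPM + 0.1) with limma. Homozygous against heterozygous gave 2 with other size factors, 2 by limma-voom and 2 when only the compared genotypes were fitted, where heterozygous against wild type gave 7. Leaving out each rat gave 0 to 5, 1 to 28 and 1 to 18 loci. On the TPM scale the median log2 fold change of all loci shifted to -0.59, -0.32 and -0.27, and the cause was not tested.

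Signs of single genes turned. On log2(TPM + 0.1), homozygous against wild type was -0.18 for Gabra6 and -0.40 for Zic2, heterozygous against wild type 0.73 for Gabra6, and homozygous against heterozygous -0.91 for Gabra6 and -1.02 for Pcp2. By limma-voom, heterozygous against wild type was 1.20 for Gabra6, and homozygous against heterozygous -1.03 for Gabra6 and -0.997 for Pcp2. The cause was not tested.

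With rat number as a replicate block, 1 locus passed in homozygous against wild type and 2 in homozygous against heterozygous; Gabra6 then had 0.99 in heterozygous against wild type and -0.10 in homozygous against heterozygous, and Pcp2 -0.12 there. The medians over the granule and Purkinje genes with the block were 0.93 and 0.98 in heterozygous against wild type and -0.08 and 0.15 in homozygous against heterozygous. The block changed the call of none of the 10 genes.

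Leaving out each rat moved the log2 fold change of homozygous against wild type over -0.41 to 3.68 for Gabra6, -0.15 to 2.75 for Cbln1, -0.38 to 4.42 for Cbln3, -0.15 to 3.52 for Fat2, -0.21 to 1.22 for Zic2, -0.34 to 2.80 for Car8, -0.12 to 3.27 for Slc1a6 and -0.28 to 3.93 for En2. Zic1 (0.05 to 1.86) and Pcp2 (0.37 to 5.66) kept their sign. Heterozygous against wild type ran over -1.14 to 2.95 for Gabra6 and -0.11 to 4.85 for Pcp2, and homozygous against heterozygous over -0.091 to 1.42 for Pcp2. Medians over the granule and Purkinje genes ran over -0.15 to 3.13 and -0.12 to 3.27 in homozygous against wild type, over -0.42 to 2.63 and -0.64 to 2.65 in heterozygous against wild type, and over -0.06 to 0.86 and -0.02 to 1.18 in homozygous against heterozygous. The upper end came without wild-type rat 3 in each of these comparisons with wild type, and without homozygous rat 2 in homozygous against heterozygous. Without the 2 farthest libraries 0 of the 45 correlated pairs passed, since 4 libraries remain. Depth limits En2, Pcp2, Cbln3 and Slc1a6 in the 3 low libraries, with 3 to 43 counts, and Gabra6 in homozygous rat 2, with 25.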
